A study of Mus musculus with 4 samples.

Results

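Of 5358 regions of the mouse genome at which SOX3 was immunoprecipitated in each of 3 independent samples of neural progenitor (NP) cells, 1520 lay inside introns. A region was made by merging ChIP-Seq peaks that overlapped by at least 1 bp, and was kept when it held a peak of every replicate. It counted as intronic when its midpoint lay more than 2000 bp from every transcription start site (TSS) of a protein-coding gene, within the body of a protein-coding gene and outside the exons of the genes holding it (GENCODE vM1 annotation of the mm9 assembly). The remaining common regions comprised 1028 promoter, 2740 intergenic and 70 exonic sites.

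All libraries came from the mouse ES cell line R1, taken through 4 days of monolayer culture in N2B27 medium to NP cells, with no genetic change or drug treatment named in the labels. SOX3 was precipitated with an antibody raised against human SOX3 (R&D, AF2569) in 3 biological replicates, the only group analysed here. An input DNA library of the same cells served the study as background for peak calling and was not analysed here. The replicate lists held 18816, 8096 and 40543 peaks, the read depth behind each is not known, and peak lists carry no expression values with which the NP identity of the cells could be checked.

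SOX3 is a transcription factor of the SOXB1 subgroup, expressed in neural progenitors, which binds short A/T-rich DNA through its high mobility group (HMG) domain. SOX proteins commonly bind next to a partner factor, and POU-domain factors, which recognise the octamer, are the best known of these partners in neural cells. Introns make up much of the length of vertebrate genes and hold many enhancers, which may act on the gene that contains them or on another gene. A classical case is the second intron of Nes, the gene of the progenitor intermediate filament nestin, whose enhancer is active in the developing nervous system.

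The following stretches show intronic matches to the SOX/POU composite, in which a loosely defined SOX element and part of an octamer stand next to each other. Each is the reference sequence of 41 bases (mm9), 5′ to 3′, on the strand on which the SOX element comes first, with the composite in capitals. They come from the 8 sites that ranked highest among the 102 with a match, by the lowest of their 3 score percentiles, a rank explained with the scores.

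Rgma (chr7:80545268-80545308, plus strand): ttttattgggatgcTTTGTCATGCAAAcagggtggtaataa
Nes (chr3:87778405-87778445, minus strand): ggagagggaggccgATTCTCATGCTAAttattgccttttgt
Cnot2 (chr10:115999367-115999407, plus strand): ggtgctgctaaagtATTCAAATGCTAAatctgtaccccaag
Ebf1 (chr11:44655371-44655411, plus strand): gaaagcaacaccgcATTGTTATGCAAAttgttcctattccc
Atp8a1 (chr5:68024738-68024778, plus strand): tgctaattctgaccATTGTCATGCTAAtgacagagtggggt
Scube2 (chr7:116957164-116957204, plus strand): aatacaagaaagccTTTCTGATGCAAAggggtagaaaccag
Cdh4 (chr2:179306128-179306168, minus strand): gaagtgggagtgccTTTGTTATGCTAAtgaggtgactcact
Kif26b (chr1:180780888-180780928, plus strand): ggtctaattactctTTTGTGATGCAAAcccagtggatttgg

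The next stretches are the central 150 bases of the intronic sites that ranked highest in the same way, leaving out those on small RNA genes and those mostly made of sequence that occurs in several places of the genome. They are shown on the coding strand of the host gene, with the SOX words (AACAAA or AACAAT, and likewise GACAAA or GACAAT) and the word CAGCAGG, read on either strand, in capitals.

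Sox13 (chr1:135294374-135294523): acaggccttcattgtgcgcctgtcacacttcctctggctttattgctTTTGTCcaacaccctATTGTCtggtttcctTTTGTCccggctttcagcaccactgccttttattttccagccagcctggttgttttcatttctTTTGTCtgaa
Ano1 (chr7:151814309-151814458): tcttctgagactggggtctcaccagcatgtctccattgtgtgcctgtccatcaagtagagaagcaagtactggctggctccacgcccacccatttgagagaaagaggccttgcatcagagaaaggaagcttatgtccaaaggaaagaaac
Eno4 (chr19:59043709-59043858): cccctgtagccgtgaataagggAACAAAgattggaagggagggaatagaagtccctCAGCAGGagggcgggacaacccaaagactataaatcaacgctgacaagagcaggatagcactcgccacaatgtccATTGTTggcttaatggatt
Ank (chr15:27511436-27511585): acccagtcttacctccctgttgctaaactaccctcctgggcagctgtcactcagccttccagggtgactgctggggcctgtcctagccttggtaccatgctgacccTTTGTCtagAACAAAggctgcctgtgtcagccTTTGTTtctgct
Dock2 (chr11:34552580-34552729): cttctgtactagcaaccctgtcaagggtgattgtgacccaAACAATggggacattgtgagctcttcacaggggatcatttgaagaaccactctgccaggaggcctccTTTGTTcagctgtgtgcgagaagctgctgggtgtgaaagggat
Tnfsf11 (chr14:78688956-78689105): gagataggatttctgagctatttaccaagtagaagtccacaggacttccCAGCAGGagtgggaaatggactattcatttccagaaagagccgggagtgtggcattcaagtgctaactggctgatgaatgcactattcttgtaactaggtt
Hhipl1 (chr12:109558853-109559002): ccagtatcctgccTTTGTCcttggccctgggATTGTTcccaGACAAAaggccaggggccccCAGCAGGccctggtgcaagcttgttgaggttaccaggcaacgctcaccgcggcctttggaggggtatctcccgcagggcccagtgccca

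Introns held 28.4% of the common sites (95% Wilson interval 27.2 to 29.6%) and 32.5% of the sequenced bases of the genome, a ratio of 0.872. Their density of 1.83 sites per Mb was close to the 1.79 per Mb of intergenic sequence, while promoter sequence held 7.04 sites per Mb. Among the peaks of each replicate taken alone, intronic peaks made up 25.8% in replicate 1, 28.0% in replicate 2 and 28.7% in replicate 3 (27.5% ± 1.52, SD, n = 3). The share was thus steady between replicates although their lists differed in length, and the promoter share was not, at 26.5%, 17.4% and 11.7%. Of the 4848 intronic peaks of replicate 1, 32.4% belonged to a common site; the proportions were 68.3% of 2266 in replicate 2 and 13.4% of 11621 in replicate 3. Intervals here and below cover counting error only, since sites of the same 3 libraries are not replicates.

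The limit of 2000 bp from a TSS chose the members. The intronic sites nearest to it lay in Ext1 at 2016 bp (scores of 299, 217 and 323 in replicates 1, 2 and 3), in Celf2 at 2017 bp (172, 130 and 204) and in Sh3bp4 at 2020 bp (77.9, 75.1 and 75.1). Just on the promoter side lay sites at Cbfa2t2 at 1988 bp (52.3, 77.4 and 131), Mtss1 at 1976 bp (282, 112 and 179) and Nkx2-2 at 1970 bp (228, 73.1 and 156). Within 500 bp of the limit there were 37 intronic sites, and 47 sites that would have been intronic on the other side.

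Intronic sites spanned 97 to 3491 bp, with a median of 406.5 bp. The score of a peak, 10 times the negative log10 of the p-value that MACS gave it against input, had a median over the intronic sites of 190 in replicate 1, 116 in replicate 2 and 200 in replicate 3. Because scores rise with depth, sites were ranked by percentile within each list, that is, the percentage of the peaks of a list at or below the score of the site. The median percentile was 83.7, 68.3 and 93.4 in replicates 1, 2 and 3. The lowest of the 3 percentiles came from replicate 2, the shortest list, at 1226 of the 1520 sites, from replicate 1 at 284 and from replicate 3 at 10. At 242 intronic sites (15.9%) the score reached the 90th percentile or higher in every replicate. Spearman's rho over the 1520 sites, a description of sites that share their libraries, was highest for the scores of replicates 2 and 3 (0.917) and lower for replicate 1 against replicate 2 (0.719) or 3 (0.697).

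Intronic sites scored higher than promoter sites in every replicate. The probability that an intronic site had the higher score of a random pair was 0.543 (95% DeLong interval 0.520 to 0.565), 0.578 (0.556 to 0.601) and 0.587 (0.565 to 0.610) in replicates 1, 2 and 3. Against intergenic sites the same probability was 0.523, 0.523 and 0.515, and its interval in replicate 3 (0.496 to 0.533) included an even chance. Without sites mostly made of repeated sequence the values against intergenic sites were 0.516, 0.512 and 0.501, each with an interval that included an even chance.

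**Figure D1:**
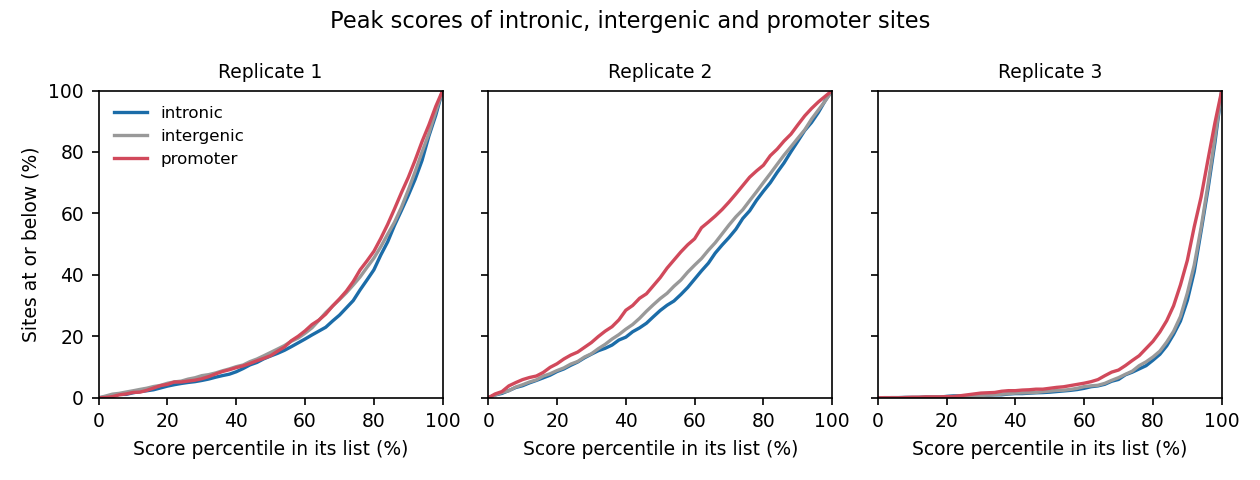
Cumulative percentage of sites (y axis) at or below each score percentile of the list (x axis) in the 3 replicates, for intronic (blue), intergenic (grey) and promoter (red) common sites. The blue curve lies to the right of the red curve over most of each panel, with median intronic percentiles of 83.7, 68.3 and 93.4, and runs close to the grey curve.

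By the lowest of its 3 percentiles the first-ranked intronic site lay in Sox13, a SOXD gene, 4602 bp from the nearest TSS (chr1:135294049-135294848, with scores of 3100 in replicate 1, 2663 in replicate 2 and 3100 in replicate 3). In replicate 3 alone 1 other intronic site, in Zc3h7a, had a higher listed score, at 3152, and 4 of the sites in Tex14 and 1 in Rbm17 had the same score, these genes apart from Tex14 being named after their values were seen. The exact value 3100 thus recurred. Whether it is a limit of the scale was not tested, so the order of these scores is uncertain. The centre of the Sox13 site, printed above, held 4 copies of GACAAA or GACAAT and no AACAAA or AACAAT. The site lay upstream of the start of the Sox13 transcript with the longest coding sequence and within a longer annotated transcript, so it has no intron number in the former.

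Among the other leading sites, intron 12 of the chloride channel gene Ano1 held a site of 1654 bp scoring 2322, 1707 and 3033 in replicates 1, 2 and 3. Intron 13 of Eno4, an enolase gene, followed with 2216, 1337 and 2461. The site in intron 8 of Ank, which encodes a pyrophosphate transporter, had 1659, 1017 and 1808, and that in intron 2 of Dock2, a Rac activator of blood cells, had 1548, 1005 and 1951. Intron 2 of Tnfsf11, the gene of the cytokine RANKL, held a site with 1582, 942 and 1556, and intron 6 of Hhipl1 one with 1541, 898 and 1408. Each of these 6 sites scored above the 99th percentile of all 3 lists, the lowest value being 99.3 at Hhipl1 in replicate 2. Measured from the middle of the site, the nearest exon was 104 bp away in Eno4 and 617 bp in Hhipl1. The Eno4 site, 908 bp wide, thus reached into the exon. In Ano1, Ank, Dock2 and Tnfsf11 the distance was between 4759 and 8587 bp.

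Tex14, a gene of male germ cells, held 5 intronic sites with the lowest percentile between 99.5 and 99.9. All 5 overlapped annotated small RNA genes, 4 of U3 and 1 of U1, and between 12.4% and 64.5% of their 50-base words occurred elsewhere in the genome. Sites of this kind were few, since 9 of the 1520 intronic sites overlapped a small nuclear or small nucleolar RNA gene, and 1511 remained without them. A further 24 sites overlapped a lincRNA gene, 14 a processed transcript and 5 a miRNA gene.

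SOX recognition words were concentrated at the middle of the intronic sites. In the central 200 bp, AACAAA or AACAAT, read on either strand, occurred in 51.3% of the 1520 sites (interval 48.8 to 53.8%), against 30.5% of 3039 windows of the same length 2000 bp to either side, a difference of 20.8 percentage points (95% Newcombe interval 17.8 to 23.8). The words GACAAA or GACAAT occurred in 35.5% of sites and 17.5% of flanking windows, a ratio of 2.02. One of these 4 words or more was found in 1034 sites, or 68.0%, against 42.3% of flanking windows. In each replicate alone the share of intronic peaks with AACAAA or AACAAT was 38.6%, 45.7% and 37.8% (40.7% ± 4.35, SD, n = 3), below the share in the common sites in every list.

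The octamer, ATGCAAAT or ATGCTAAT, occurred in 8.55% of intronic sites and 2.27% of flanking windows. The SOX/POU composite occurred in 102 sites (6.71%, interval 5.56 to 8.08%) and in 9 of 3039 flanking windows (0.296%), a ratio of 22.7. It overlaps the octamer by design, and it tolerates any base at several places of the SOX element. In the sequences of Nes, Cnot2 and Scube2 that element lacks the bases TTGT. When the spacing was measured without the composite, from the 4 bases TTGT to a following octamer on the same strand, 17 of the 36 pairs that lay within 20 bp had exactly 1 base between them. In the flanking windows 2 of 14 such pairs did. No other spacing occurred in more than 5 of the 36.

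CAGCAGG, which matches the core of the motif of the ZIC zinc-finger factors, was present in 301 intronic sites (19.8%) and 5.43% of flanking windows, a difference of 14.4 points (12.3 to 16.6). The word CAGCTG, an E-box bound by basic helix-loop-helix factors, occurred in 17.0% against 9.18%, a difference of 7.79 points (5.69 to 9.99). For the next 3 words the interval of the difference from the flanks included 0. TAATTA, a homeodomain word, was found in 7.11% of sites and 7.14% of flanking windows, and TTGGCA, part of the NFI motif, in 9.47% and 9.77%. The AP-1 word TGACTCA stood at 3.09% and 3.95% (difference −0.86 points, −1.93 to 0.32). GGGCGG, bound by SP and KLF factors, was at 5.79% and 3.19%. The median GC content was 49% at the sites and 44.5% in their flanking windows, and no word share was adjusted for it. A match is a description of the letters and not a sign of a bound factor.

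Sites with CAGCAGG held one of the 4 SOX words in 77.7% of cases and those without it in 65.6%, a difference of 12.1 points (6.44 to 17.2). When sites mostly made of repeated sequence were left out, this difference was 4.96 points, with an interval (−0.78 to 10.1) that included 0.

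In word content the intronic sites resembled the intergenic sites more than the promoter sites. The share with AACAAA or AACAAT was 0.14 points below that of intergenic sites (−3.28 to 2.98) and 17.8 points above that of promoter sites (13.9 to 21.5). For CAGCAGG the difference was −0.12 points (−2.59 to 2.41) from intergenic and 7.35 points (4.46 to 10.2) from promoter sites. GGGCGG ran the other way, with an intronic minus promoter difference of −30.6 points (−33.8 to −27.4) and an intronic minus intergenic difference of −3.01 points (−4.55 to −1.37). The median GC content of the central 200 bp was 49.0% in intronic, 48.5% in intergenic and 58.25% in promoter sites.

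**Figure D2:**
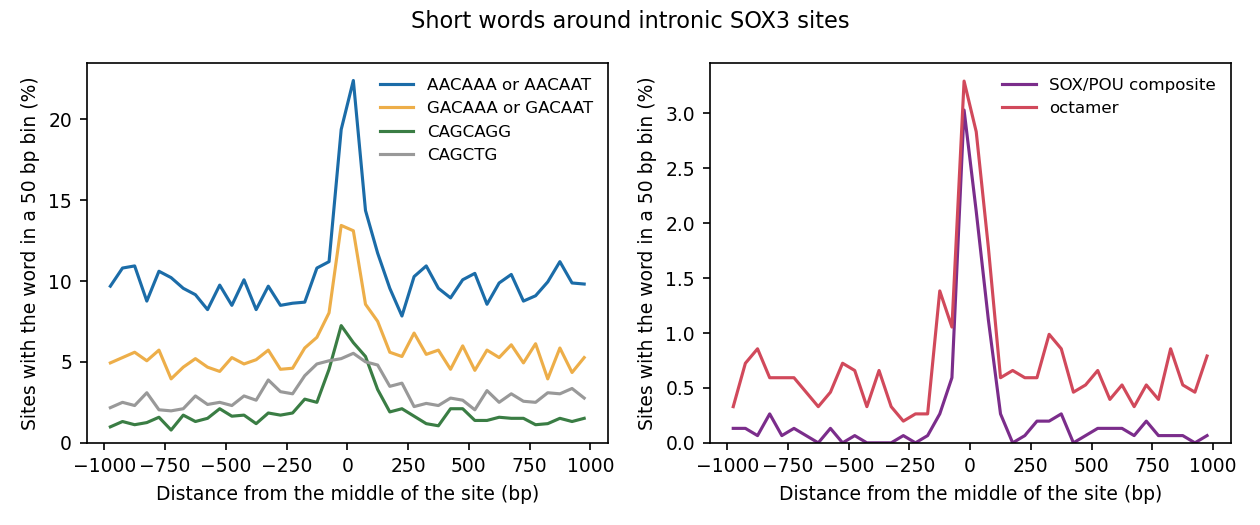
Percentage of intronic sites with each word (y axis) in bins of 50 bp by distance from the middle of the site (x axis, bp), with the SOX words, CAGCAGG and CAGCTG on the left and the octamer and SOX/POU composite on the right. AACAAA or AACAAT peaks at 22.4% of 1518 sites in the bin centred at 25 bp, and the composite at 3.03% in the bin centred at −25 bp.

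Over all intronic sites the share with SOX words varied with the score. When the 1520 sites were split into 4 sets of 380 by their lowest percentile, AACAAA or AACAAT was present in 60% of the strongest set (55.0 to 64.8%) and in 50%, 47.9% and 47.4% of the others. GACAAA or GACAAT was present in 41.1% of the strongest set, then in 37.6% and 33.7%, and in 29.5% of the weakest (25.1 to 34.2%). Without sites mostly made of repeated sequence the shares from the strongest set to the weakest were 62.7%, 55.9%, 53.2% and 54.4% for the former words and 42.7%, 42.9%, 35.6% and 35.6% for the latter. There the intervals of the strongest and weakest sets overlapped. They were 57.4 to 67.8% and 49.0 to 59.7% for the former words, and 37.5 to 48.1% and 30.6 to 40.9% for the latter. For the composite no difference in score was detectable. The probability that a site holding it scored above one without it was 0.518, 0.543 and 0.535 in replicates 1, 2 and 3, each with an interval that included an even chance (the lowest bound 0.459 and the highest 0.60).

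Repeated sequence marked a separate set. At 203 intronic sites (13.4%) more than 50% of the 50-base words of the region occurred in more than 1 place of the genome. AACAAA or AACAAT was present in 17.2% of these sites, below the 31% of their own flanks, and in 56.6% of the remaining 1317. These 203 sites scored lower, with medians of 134, 104 and 171 against 199, 119 and 204 for the rest in replicates 1, 2 and 3.

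AACAAA or AACAAT stood more often on the strand opposite to the coding strand of the host. Of 1112 occurrences in the 1506 sites whose host genes lay on a single strand, 42.2% were in sense (39.3 to 45.1%). The flanking windows of the same sites had 40.5% in sense (38.0 to 43.1%), and the intervals overlapped. The composite had 47 occurrences in sense and 56 in antisense.

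The 1520 sites fell into 1146 host genes, 6.65% of the 17233 protein-coding genes with intron sequence beyond the 2000 bp limit. Of these hosts 891 held 1 site, 173 held 2, 50 held 3, 16 held 4 and 16 held 5 or more. The 255 hosts with at least 2 sites held 652 sites. Neighbouring sites of a host lay a median of 37495 bp apart, and 113 of 407 neighbouring pairs (27.8%) were within 10000 bp. Most sites, 1488, lay in 1 host gene, 31 lay in 2 and 1 lay in 3 or more.

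How often a gene hosted a site followed the length of its introns. Of 6735 genes with up to 10 kb of eligible intron 0.653% were hosts, of 4606 with 10 to 30 kb 3.26%, of 3889 with 30 to 100 kb 8.49%, of 1525 with 100 to 300 kb 24.7%, and of 478 with more than 300 kb 51.5%. The density varied far less, between 1.56 and 2.17 sites per Mb over the 5 length classes. A common SOX3 site also lay at a promoter of 96 hosts (8.38%) and of 749 of the 16087 other genes (4.66%), a difference of 3.72 points (2.21 to 5.50), which was not adjusted for gene length.

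Intron 1 held more sites than its share of intron bases. Counted in the transcript with the longest coding sequence, 413 of 1416 ranked pairs of site and host (29.2%, 26.9 to 31.6%) were in intron 1, which contained 24.4% of the eligible intron bases, a ratio of 1.19 (1.10 to 1.29). The other 137 pairs lay outside that transcript. The ratio was 1.09 (0.968 to 1.22) in intron 2, 1.02 in intron 3, 0.890 in intron 4, 0.908 in intron 5 and 0.863 (0.798 to 0.932) from intron 6 onwards. In the last intron of a gene with several it was 0.713 (0.570 to 0.890). With the promoter limit moved to 1000 bp the intron 1 ratio was 1.22, and with 5000 bp it was 1.19 (1.09 to 1.30). Sites in intron 1 did not score detectably higher than the others, the probability being 0.504, 0.517 and 0.515 in replicates 1, 2 and 3 with intervals that included an even chance.

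By distance from the nearest TSS the sites followed the intron bases up to 100 kb. Ratios of the shares of sites and bases lay between 1.01 and 1.08 in the 5 classes from 2 to 100 kb, each with an interval that included 1. Beyond 100 kb the ratio was 0.791 (0.698 to 0.893), from 217 sites. The median distance was 24540 bp, and the nearest TSS belonged to the host gene at 83.9% of sites. At 45 sites the middle of the site lay within 200 bp of an exon, so such a site may overlap it. The median position of a site along its intron was 0.513 of the intron's length.

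**Figure D3:**
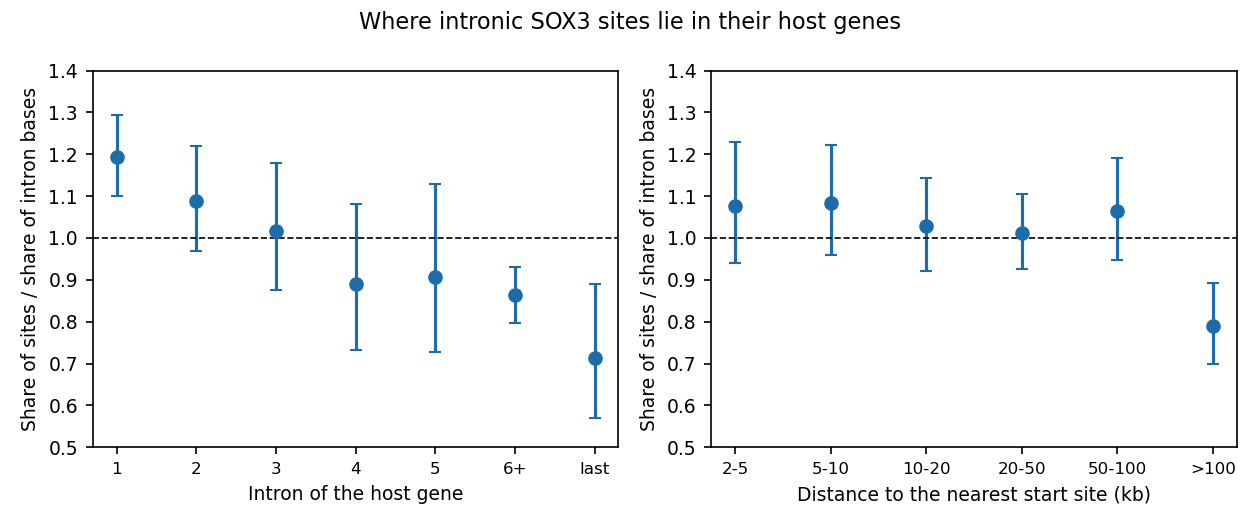
Share of intronic sites divided by the share of eligible intron bases (y axis), by intron number (left) and by distance to the nearest TSS in kb (right). Points are ratios, bars are 95% Wilson intervals, and the dashed line marks a ratio of 1; intron 1 lies above it at 1.19, and introns from 6 onwards, the last intron and distances beyond 100 kb lie below it.

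Density differed between chromosomes. Chromosomes 1, 8 and 19 held 2.91, 2.82 and 2.65 intronic sites per Mb of intron, the other 16 autosomes between 1.33 and 2.39, and the X chromosome 0.466 (exact Poisson interval 0.276 to 0.736, 18 sites). The same 3 chromosomes stood above the other autosomes in each list alone, with 27.2 to 30.2 intronic peaks per Mb in replicate 3 against 8.45 to 15.9, 4.25 to 4.37 against 1.82 to 3.37 in replicate 2, and 7.04 to 8.98 against 4.38 to 6.93 in replicate 1. Intergenic common sites were also dense there, at 2.39 to 3.45 per Mb against 1.34 to 2.37. Of the 32 hosts with 4 sites or more, 13 lay on these chromosomes (40.6%), which hold 14.3% of the genes tested. The input library was not analysed here, so its density on these chromosomes is not known, and the densities of Epha4, Pax3 and the other hosts on them are to be read with that limit. Its part in the results on single genes was not tested, and list densities are therefore given with and without these chromosomes.

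The host with the most sites was Gm20388 on chromosome 8 with 12, but its annotated model spans 4435 kb and all 12 sites lie in intron 1. Fgfr2, a receptor of fibroblast growth factors, followed with 11 sites over a model of 3009 kb. Of these, 1 lay within the Fgfr2 transcript of 102 kb with the longest coding sequence, in intron 2, with scores of 238, 144 and 184 in replicates 1, 2 and 3. The others lay at −327646 to −2897039 bp from the start of that transcript, upstream of it and within the longer annotated model.

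Epha4, a receptor for ephrins that guides axons, held 7 sites in a gene of 148 kb on chromosome 1, or 50.1 per Mb of intron. Intron 3 held 4 of them, intron 4 held 2, and intron 1 held 1. The strongest lay 12081 bp from the TSS (chr1:77498956-77500208; scores of 1510, 852 and 1421 in replicates 1, 2 and 3) and 53079 bp from it (chr1:77458236-77458932; 980, 873 and 1668). The weakest by lowest percentile had 153, 87.7 and 180. Both leading sites exceeded the 99th percentile of every list, and 1 weaker site, in intron 3, held a SOX/POU match. Ephb1, a second receptor of this class, had 5 sites, in introns 1, 2 and 4, led by one in intron 2 with scores of 661, 506 and 899.

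Clybl, a gene of mitochondrial metabolism, also held 7 sites. The best of them lay in intron 1, with scores of 878, 459 and 819 in replicates 1, 2 and 3. Greb1l, Zmat4 and Trpm3, a calcium-permeable channel, had 6 each; in Greb1l 5 of the 6 lay in intron 1, the strongest with 1138, 631 and 1142. In Zmat4 4 of the 6 sites lay beyond the transcript with the longest coding sequence. 1700112E06Rik completed the leading hosts with 5 sites over 1036 kb, the best scoring 865, 577 and 944.

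**Figure D4:**
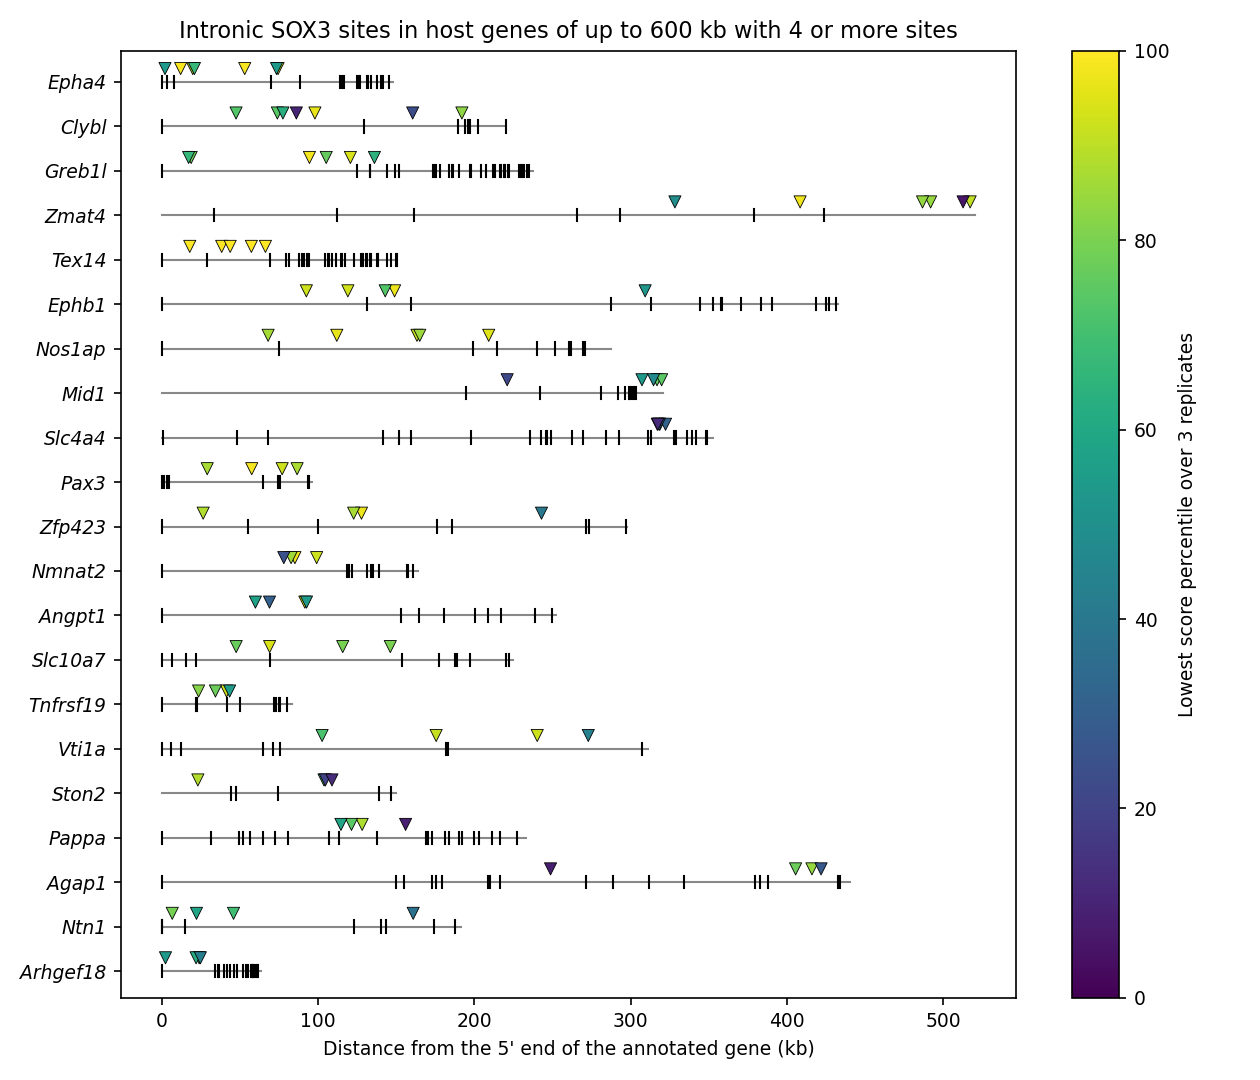
Intronic SOX3 sites (triangles) in the 21 host genes of up to 600 kb with 4 sites or more, by distance in kb from the 5′ end of the annotated gene (x axis); grey lines are gene bodies, black ticks the exon starts of the transcript with the longest coding sequence, and colour the lowest score percentile over the 3 replicates. Epha4 shows 7 sites, and the sites of Tex14 all have a lowest percentile above 99.

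Gene lists are compared by density, because the share of genes that host a site rises with intron length and the lists differ in it from all genes, which had a median of 15.9 kb and of which 6.65% were hosts. Genes of neural transcription factors hosted sites at 3.89 per Mb of intron (exact Poisson interval 3.06 to 4.88), against 1.83 per Mb over all genes. Of these genes, with a median of 177 kb of intron, 38 of 84 were hosts (45.2%, against 6.65% of all genes). Without chromosomes 1, 8 and 19 the values were 3.09 (2.30 to 4.06) against 1.65. Sox13 led the list. Tead1, an effector of Hippo signalling, had a site in intron 2 with scores of 1216, 856 and 1958 in replicates 1, 2 and 3. Pax3, a regulator of the dorsal neural tube and neural crest, had 4 sites in a transcript of 95.6 kb, in introns 4 and 7, of which the strongest in intron 4 had 902, 652 and 1150. Even its weakest site by lowest percentile scored 458, 212 and 353, so all 4 stood above the 86th percentile in every list. Rora, a nuclear receptor of cerebellar neurons, had a site in intron 1 at 640, 531 and 894, 247534 bp from the nearest TSS.

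Radial glia genes stood at 3.87 per Mb (2.40 to 5.92), and at 3.88 (2.12 to 6.51) without the 3 dense chromosomes. Their median intron sequence per gene was 98.8 kb, and 16 of 36 were hosts (44.4%, against 6.65% of all genes). Celsr1, a planar polarity cadherin, had a site in intron 1 with scores of 1213, 841 and 1504 in replicates 1, 2 and 3. The list also holds Nes, Gpr56, Tmem163, Cpvl, Dbx1 and Cspg5, which the study itself named on these samples. Without these genes, a choice made after the densities were seen, the density was 3.14 (1.79 to 5.10), and 3.15 (1.57 to 5.64) without the dense chromosomes, and both intervals included the value of all genes. The site in intron 2 of Nes scored 953, 587 and 1027, and its composite is printed above on the strand opposite to the gene. The GACAAA in the central 150 bases of that site lay outside the composite. Msi2, an RNA-binding protein of stem cells, held 3 sites, the best at 370, 301 and 562, and the polarity gene Pard3b held 2.

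Of the axon guidance genes, with a median of 169 kb of intron, 15 of 42 were hosts (35.7%, against 6.65% of all genes). Their density was 2.95 per Mb (2.02 to 4.17), and 1.99 (1.20 to 3.11) without chromosomes 1, 8 and 19, where Epha4 and the semaphorin receptor gene Plxna2 lie. That of Plxna2 was a single site in intron 3 with 949, 591 and 1172 in replicates 1, 2 and 3, and that of the semaphorin Sema6d had 538, 428 and 750. The Sema6d site lay upstream of the start of the transcript with the longest coding sequence, so it has no intron number there. Without those chromosomes the interval included the 1.65 of all genes. The list holds Slit1 and Robo1, and the lists of transcription factors and signalling genes hold Gli3, Sox5, Sox6, Smo and Fzd3, all of which the study named on these samples, so these densities are not independent of that choice either. Signalling receptors and effectors stood at 2.38 per Mb (1.74 to 3.19), an interval that included the 1.83 of all genes, and without chromosomes 1, 8 and 19 at 2.38 (1.71 to 3.23) against 1.65. Without Fgfr2, left out after its sites were seen, the values were 2.08 (1.44 to 2.91) and 2.05 (1.38 to 2.92), and both intervals included the value of all genes. With a median of 102 kb of intron, 27 of 64 were hosts (42.2%, against 6.65% of all genes). Among them the Wnt receptor genes Fzd3 (770, 590 and 1269) and Ror2 (629, 460 and 766 at the stronger of 2 sites), Fgfr1 (612, 348 and 472) and the Notch coactivator Maml2 (328, 272 and 487 at the best of 3 sites) led by lowest percentile.

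Of the adhesion and synapse genes 32 of 56 were hosts (57.1%, against 6.65% of all genes), while their density was 1.6 per Mb (1.23 to 2.04), with an interval that included the 1.83 of all genes. Without the 3 dense chromosomes it was 1.45 (1.07 to 1.92) against 1.65. Their introns are long, with a median of 697 kb per gene against 15.9 kb over all genes. Cntnap5a, of the contactin-associated family, held the strongest of these sites in intron 13 (1388, 889 and 1776 in replicates 1, 2 and 3), and Sdk1, an adhesion molecule of synapses, had one in intron 31 (1344, 809 and 1411). The teneurin gene Odz4 followed with 1178, 439 and 779 at the best of its 3 sites, and the cadherin gene Cdh4 with 565, 406 and 804.

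Lists of other cell types were read in the same way. Muscle genes had 2.07 sites per Mb (1.16 to 3.42; 9 hosts of 35) and blood genes 1.69 (0.810 to 3.11; 9 hosts of 36), both with intervals that included the 1.83 of all genes. These shares of hosts, 25.7% and 25%, stood against 6.65% of all genes, and the median intron sequence per gene was 74.7 kb and 109 kb. Without chromosomes 1, 8 and 19 the densities were 2.13 (1.17 to 3.58) and 1.62 (0.700 to 3.2) against 1.65. In muscle genes the best sites were in Trdn (786, 378 and 786 in replicates 1, 2 and 3), Dmd (625, 292 and 487), Sgcd (568, 286 and 634) and Cacna2d1 (407, 197 and 326). In blood genes they were those of Dock2, Ets1 (970, 600 and 829), Tox (601, 255 and 371) and Blnk (207, 193 and 302). The Ets1 site and all 5 sites of Sgcd lay upstream of the start of the transcript with the longest coding sequence, so they have no intron number there. Pluripotency genes had the highest density of these lists, 7.13 per Mb (2.62 to 15.5), from 6 sites in 4 hosts of 25 (16%, against 6.65% of all genes) and 0.842 Mb of intron. It was 8.38 (3.07 to 18.2) without the 3 dense chromosomes. Both intervals lay above the values of all genes, 1.83 and 1.65. The 6 sites lay in Jarid2, a partner of Polycomb repressive complex 2 (best site 1495.1, 654 and 1191), Trim71 (247, 126 and 187 at the better of 2), Esrrb (206, 120 and 189) and the RNA-binding protein gene Lin28a (694, 108 and 179).

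**Figure D5:**
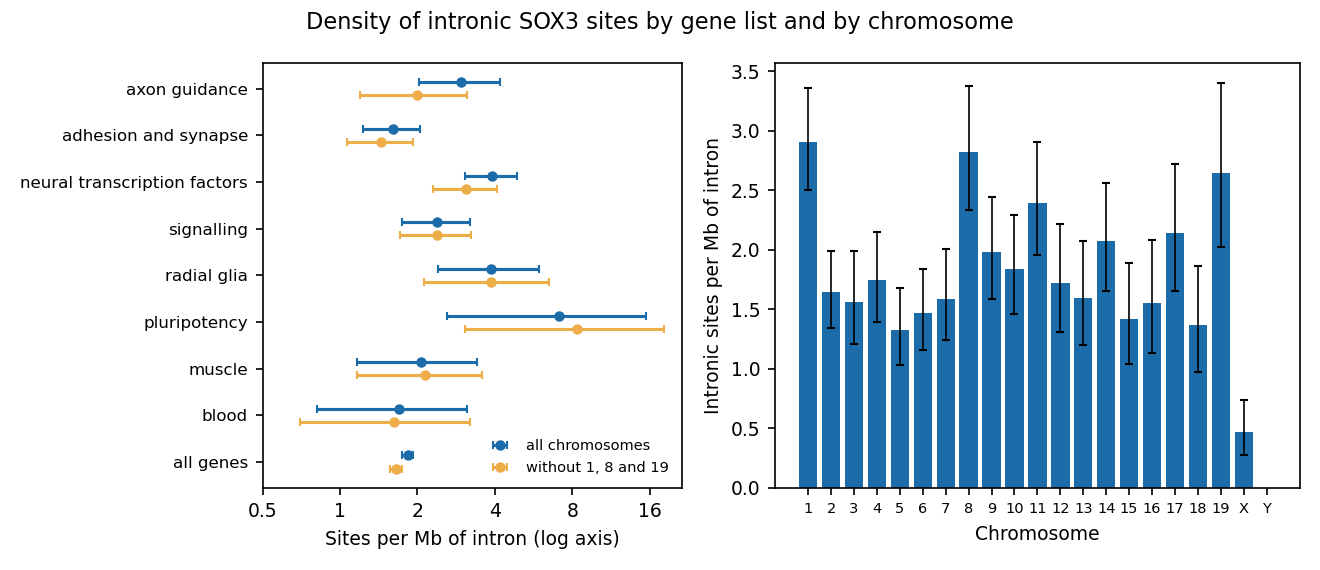
Intronic sites per Mb of intron, by gene list (left, log axis, blue for all chromosomes and yellow without chromosomes 1, 8 and 19) and by chromosome (right), with exact 95% Poisson intervals as bars. Pluripotency genes lie highest at 7.13, from 6 sites, neural transcription factor genes at 3.89 and all genes at 1.83. Chromosomes 1, 8 and 19 lie above the other autosomes.

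The study names genes with SOX3 binding inside an intron, a choice made on these samples that is no independent evidence. Of the 8 such genes taken up here, 6 held a common intronic site under the rule used here, which asks for a peak in every replicate. Apart from Nes, the scores were moderate or low. Slit1, a secreted repellent of axons, had 2 sites in intron 4, with 176, 163 and 209 and with 96.1, 121 and 163 in replicates 1, 2 and 3. Gpr56, an adhesion receptor of progenitors, had 142, 206 and 307 in intron 1. Tmem163 had 142, 69.7 and 132 in intron 2, and Cpvl 205, 61.5 and 112 in intron 11. Dbx1, a homeodomain gene of interneuron progenitors, had the weakest, with 59.0, 51.3 and 78.1 in intron 2, and its lowest percentile was 4.68. Slc44a5 and Cspg5 had no common intronic site, and each had 1 when replicate 2 was left out, as Slit1 then had 3.

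The centres of the stronger Slit1 site and of the Dbx1 site also held SOX words, as the following stretches of 150 bases show, printed on the coding strand of the host with the same words in capitals.

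Slit1 (chr19:41773538-41773687): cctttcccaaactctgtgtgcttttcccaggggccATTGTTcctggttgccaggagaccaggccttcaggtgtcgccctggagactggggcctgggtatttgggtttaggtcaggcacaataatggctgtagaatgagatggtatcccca
Dbx1 (chr7:56889749-56889898): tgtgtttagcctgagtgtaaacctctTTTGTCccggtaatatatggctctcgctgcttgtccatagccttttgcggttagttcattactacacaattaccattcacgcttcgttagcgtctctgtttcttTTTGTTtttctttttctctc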

How the data were processed

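The authors aligned 50 bp single-end reads to mm9 with Bowtie (1.0.0 in the submitters' processing notes) and called peaks for each replicate against input with MACS at a p-value threshold of 1e-05. The deposited score of each peak, 10 times the negative log10 of its p-value, is not comparable between lists. Read depth is not given in the sources used here. Peaks overlapping by 1 bp or more were merged, and the score of a replicate at a site was its highest peak. Sequences and genes came from NCBIM37 (mm9) and GENCODE vM1, with 1 transcript per gene (longest coding sequence) for intron numbers. Intervals are Wilson, Newcombe, DeLong or exact Poisson at 95%, computed with SciPy 1.17.1 and tested on simulated data. With 1 group no comparison between conditions was made. Members and gene lists were chosen with earlier results of these data known. Genes were named by rule: the 10 hosts with most sites, the 10 best sites not mostly multi-copy, up to 4 hosts per list by lowest percentile, the genes of the study and the sites nearest the limit. Some items that this rule covers are not reported here.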

Additional observations from a re-analysis of the deposited data

How the results depend on the processing

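Across 93 recomputed values, 74 stayed within 1.5 times the reported count or within 1 SD between replicates of the reported share or ratio, and 19 moved. Peaks scoring 100 or more left 833 intronic sites and 679 hosts, and raised the intronic share to 31% and the intron 1 share to 30.7%. A promoter limit of 1000 bp gave 30.2% and 30.7% for these shares, and 5000 bp gave 24.8% and 27.3%. Counting the lowest intron number over all transcripts put 40.1% of sites in intron 1. The share with AACAAA or AACAAT and its ratio to the flanks were 36.5% and 2.28 in windows of 100 bp, 65.9% and 1.27 in 400 bp, 66.3% and 1.24 over the full width, and 56.6% and 1.86 without mostly multi-copy sites.

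Leaving out each replicate in turn gave 1552 to 2168 intronic sites, 1165 to 1545 hosts, an intronic share of 27.4 to 28.5% and an intron 1 share of 29.1 to 29.2%. The AACAAA or AACAAT share ran from 46.2 to 51.0% and its ratio from 1.48 to 1.65, lowest without replicate 1. Chosen after seeing the data, the set without chromosomes 1, 8 and 19 held 1157 sites with a share of 50.9% and a ratio of 1.70. No paired analysis was possible because there is 1 group. The unknown read depth limits the comparison of scores between lists, and the common sites are bounded by the 8096 peaks of replicate 2.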
